A study of Mus musculus with 15 samples.

Results

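The tumor necrosis factor (TNF) superfamily, its receptors and the TNF receptor-associated factor (TRAF) adaptors were examined in tumor-associated macrophages (TAMs). The members were the rows of the deposited expression table whose gene symbol is Tnf or consists of Tnfsf, Tnfrsf or Traf followed by a number. This rule gave 39 genes of 55335 in the table, namely 12 ligands, 20 receptors and 7 TRAF adaptors. Family genes with symbols of another form, such as Fas, Cd40 and Lta, are not members. Those of them with a mean of at least 1 FPKM are named near the end, and the rest are given there by count.

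The TAMs were sorted from orthotopic tumors that grew in the liver of C57BL/6 mice after implantation of luciferase-expressing Hepa1-6 cells, a mouse hepatoma line. In the control group the hepatoma cells carried no miRNA overexpression, and in the other groups they were made to overexpress miR-144 or miR-451a. For this tumor model the study describes control cells that received a control lentivirus. The overexpression was introduced into the cancer cells with lentiviruses and not into the TAMs, so each comparison concerns TAMs from tumors of different cancer cells. There were 5 samples in each of the 3 groups, 15 in all, and the labels give no age, treatment, batch or date that differs between them. All samples are labelled untreated. The labels do not say whether the 5 samples of a group were separate mice, so each p-value measures the spread between these samples only. The study's own account of its RNA-seq gives fewer replicates per group than were deposited and does not say which. By its stated design, the study asked with these comparisons whether antitumor molecules of TAMs increased, and Tnf and Tnfsf10 are textbook examples of such molecules.

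Ligands of this superfamily are mostly membrane proteins that act as trimers, on the cell surface or after release by proteases. Their receptors fall into those with an intracellular death domain, those that bind TRAF proteins directly, and decoys that bind a ligand without passing a full signal. TRAF proteins link the receptors to kinases upstream of NF-kappaB and JNK, and in macrophages TNF itself is both a product and a signal of inflammatory activation.

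The 2 miRNAs that define the groups are encoded side by side on mouse chromosome 11, and their mature sequences from RefSeq (GRCm38.p6) are shown to make clear that they do not share a seed. The labels do not name an arm of miR-144, so both are given, 5′ to 3′, with the seed (bases 2 to 8) in capitals. The mature sequences lie on the plus strand at chr11:78073047-78073066 for miR-144-3p, chr11:78073010-78073032 for miR-144-5p and chr11:78073186-78073207 for miR-451a.
miR-144-3p: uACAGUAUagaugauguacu
miR-144-5p: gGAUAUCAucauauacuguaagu
miR-451a: aAACCGUUaccauuacugaguu

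Promoters of 32 of the 39 members were read from RefSeq, and those of Tnfrsf10b, Tnfrsf11b, Tnfrsf22, Tnfrsf26, Tnfsf12, Tnfsf4 and Tnfsf9 were not used here. The 250 bases before the start of 3 members are shown. Of these Tnf rose most among the members on log2(FPKM + 1), the scale of the tests below, though Tnfsf10 rose more by the ratio of means. Tnfrsf23 fell most among those with a promoter in RefSeq, and Tnfsf14 rose in both groups from a low level. Capitals mark matches, on either strand, to TATAAA or to the AP-1 letters TGANTCA. The regions are all on the minus strand of GRCm38.p6, at chr17:35202008-35202257 for Tnf, chr7:143685876-143686125 for Tnfrsf23 and chr17:57194182-57194431 for Tnfsf14.
Tnf: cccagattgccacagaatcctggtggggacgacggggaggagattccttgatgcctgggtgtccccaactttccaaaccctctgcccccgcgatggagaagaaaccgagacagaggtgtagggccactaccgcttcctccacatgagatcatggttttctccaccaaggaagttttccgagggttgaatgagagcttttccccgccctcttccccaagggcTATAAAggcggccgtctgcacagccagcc
Tnfrsf23: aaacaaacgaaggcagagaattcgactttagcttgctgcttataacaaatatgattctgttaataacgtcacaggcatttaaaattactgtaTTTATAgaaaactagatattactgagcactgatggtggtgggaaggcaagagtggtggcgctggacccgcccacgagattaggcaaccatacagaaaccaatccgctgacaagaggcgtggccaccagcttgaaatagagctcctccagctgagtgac
Tnfsf14: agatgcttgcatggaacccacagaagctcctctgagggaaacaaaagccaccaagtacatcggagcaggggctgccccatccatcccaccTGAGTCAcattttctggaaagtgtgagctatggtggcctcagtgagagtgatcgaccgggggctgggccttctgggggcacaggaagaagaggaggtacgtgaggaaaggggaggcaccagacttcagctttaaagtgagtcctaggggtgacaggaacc

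The Tnf promoter held TATAAA from 29 to 24 bases before the start. In Tnfrsf23 the same letters lay on the opposite strand, 158 to 153 bases before the start, and Tnfsf14 held the AP-1 letters 160 to 154 bases before it. TATAAA was found in 5 of the 32 members and in 12.4% of all 32851 promoters of the same length. The AP-1 letters were found in 5 members and in 6.75% of all promoters, and the GAS letters TTCNNNGAA in 5 members and 7.02% of all. The ISRE letters TTTCNNTTTC, an interferon-response motif, were found in 4 members (Tnfrsf14, Tnfrsf17, Tnfrsf1b and Tnfsf13b) and in 2.98% of all promoters. The consensus of the kappaB motif was found in 4 members (Tnfrsf25, Tnfrsf8, Tnfrsf9 and Traf3) and in 7.25% of all. These matches are a description of the letters in a short window and not of bound sites.

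The deposited values are FPKM, fragments per kilobase of transcript and per number of mapped fragments, so levels can be compared between genes. Depth, read from the steps between low values, was 15.6 to 30.7 M fragments per sample, with control at 23.9 to 28.0, miR-144 at 18.1 to 27.4 and miR-451a at 15.6 to 30.7. Of the 39 members, 24 had a mean of at least 1 FPKM over the 15 samples and 15 did not. The 10 macrophage markers were all above 1 FPKM. The hepatocyte genes Alb, Apoa1, Apoc3, Serpina1a and Ttr were listed at 0 in all 15 samples, as were the T cell genes Cd3e and Cd3g and the Kupffer cell gene Clec4f. Other genes of these lists were above 0, among them Cd4 and Cd5l. The 4 fibroblast markers summed to 97.2 to 210 FPKM over all samples, and the sums of the lists are given near the end. In bulk RNA of sorted cells, fewer cells of a type and less RNA per cell cannot be told apart.

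Tests were made with limma on log2(FPKM + 1), with all 3 groups in 1 fit and adjustment over all genes tested, and a gene was called at an adjusted p under 0.05. Differences on this scale are smaller than the true change for genes near or below 1 FPKM. For several of these genes the ratio of mean FPKM, or the means themselves, are given as well. In both miRNA groups the median of all genes was shifted upward, by 0.13 for miR-144 and 0.14 for miR-451a, and the members are described against that shift.

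**Figure D1:**
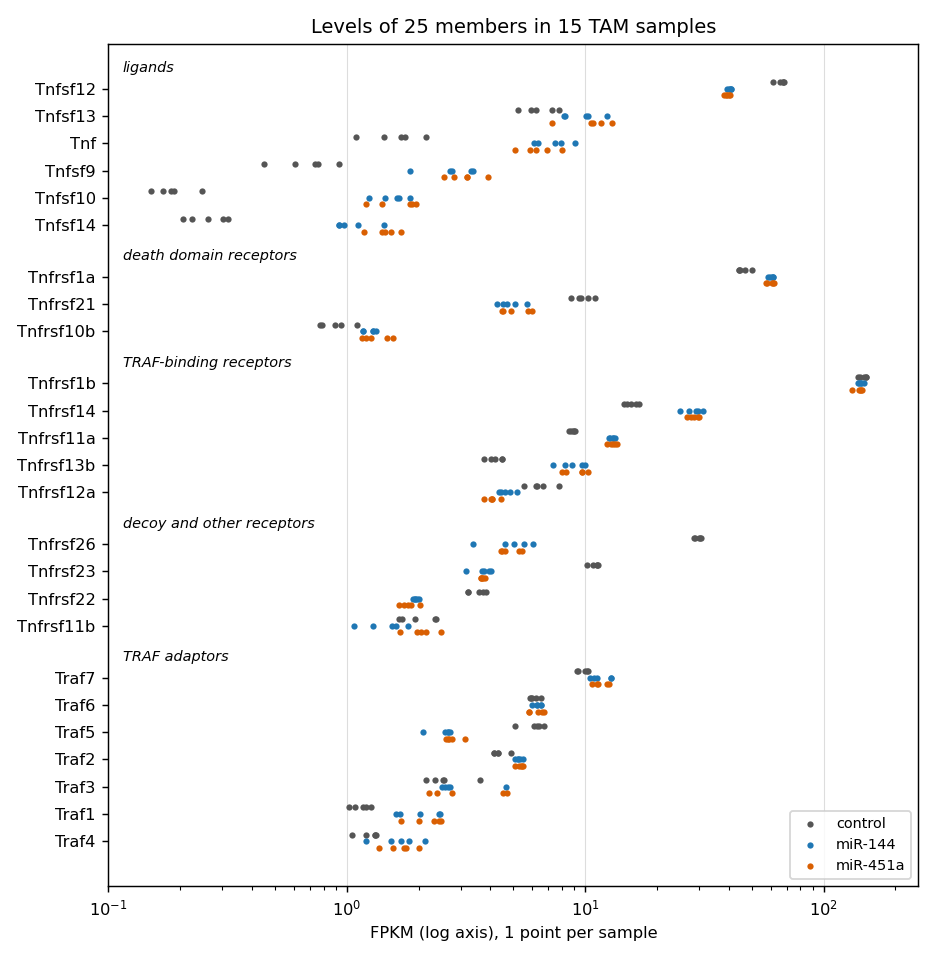
FPKM of the 25 members with a group mean of at least 1 FPKM, on a log axis, with 1 point per sample and colours for control, miR-144 and miR-451a. Tnfrsf1b was highest in every group at 131 to 151 FPKM, and the control points of Tnf, Tnfsf9, Tnfsf10 and Tnfsf14 stand apart to the left of both miRNA groups.

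The family in TAMs was led by receptors and by 1 ligand. In control, Tnfrsf1b, encoding the TNF receptor TNFR2, had the highest level at 146 ± 5.06 FPKM (SD, n = 5), followed by Tnfsf12, the ligand TWEAK, at 66.1 ± 2.78 and Tnfrsf1a, the death domain receptor TNFR1, at 45.9 ± 2.55. Tnfrsf26, an orphan receptor of the mouse, came next at 29.7 ± 0.913 and Tnfrsf14, the receptor HVEM, at 15.7 ± 0.927. The samples of these 5 members did not overlap between neighbours in the order. Of the 20 pairs of neighbours among the 21 members with a control mean of at least 1 FPKM, 13 overlapped, so most of the order below Tnfrsf23 is not resolved.

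The order changed in both miRNA groups. Tnfrsf1a took the second place at 60.4 ± 1.15 FPKM in miR-144 and 60 ± 2.02 in miR-451a, above Tnfsf12 at 40.2 ± 0.645 and 39.4 ± 0.883. Tnfrsf26 moved from rank 4 in control to rank 12 in miR-144 and rank 13 in miR-451a. Tnf moved from rank 19 to rank 9 in both. Among the 25 members with a group mean of at least 1 FPKM there, 18 of 24 pairs of neighbours overlapped in miR-144 and 17 of 24 in miR-451a, those of Tnfrsf26 and, but for the one above it in miR-451a, of Tnf included, so these ranks are approximate. Tnfrsf1b stayed first, at 143 ± 3.25 and 140.0 ± 5.49 FPKM.

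Against control, 13 of the 24 tested members were called higher and 8 lower in miR-144, where 47.1% of all 11419 genes tested were called higher and 20.1% lower. In miR-451a, 13 members were called higher and 7 lower, against 48.1% and 20.3% of all genes. The groups did not overlap for 12 members that were higher and 7 that were lower in each comparison, while 53.9% of all genes did not overlap in miR-144 and 55.2% in miR-451a. The median difference of the 24 members was 0.23 on the log2 scale in each comparison. Both comparisons use the same control samples. The filter was a mean over all samples, which Tnfsf9, Tnfsf10 and Tnfrsf10b passed through their higher miRNA groups only, their control means being 0.697, 0.188 and 0.9 FPKM.

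Without the filter all 39 members could be tested. In miR-144, 18 were called higher and 8 lower, where 23.1% of 29540 genes were called higher and 9.65% lower. In miR-451a, 19 were called higher and 7 lower, against 24.5% and 9.69%. With median centring and no filter 13 of the 39 were called higher and 17 lower in miR-144, against 14% and 54.1% of all genes, and 15 higher and 16 lower in miR-451a, against 14.4% and 55.5%. Genes near 0 FPKM take the centring shift itself as a difference in that fit. After centring each sample on its median, 10 of the 24 members were called higher and 9 lower in miR-144, against 30.8% and 30.7% of all genes. With the same centring, 11 were higher and 9 lower in miR-451a, against 31.3% and 31.8%. Of the 14 members with a mean of at least 5 FPKM, 12 were called in each comparison, against 71.9% and 72.6% of 6639 genes. At a minimum log2 difference of 1, 6 of the 24 were called in miR-144 and 5 in miR-451a, against 7.78% and 8.27% of all genes, and the same numbers of the 39 without the filter, against 3.15% and 3.34%. The share of higher calls among all called genes went from 70.1% to 50% in miR-144 and from 70.3% to 49.6% in miR-451a with this centring, and among called members from 61.9% to 52.6% and from 65.0% to 55.0%.

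**Figure D2:**
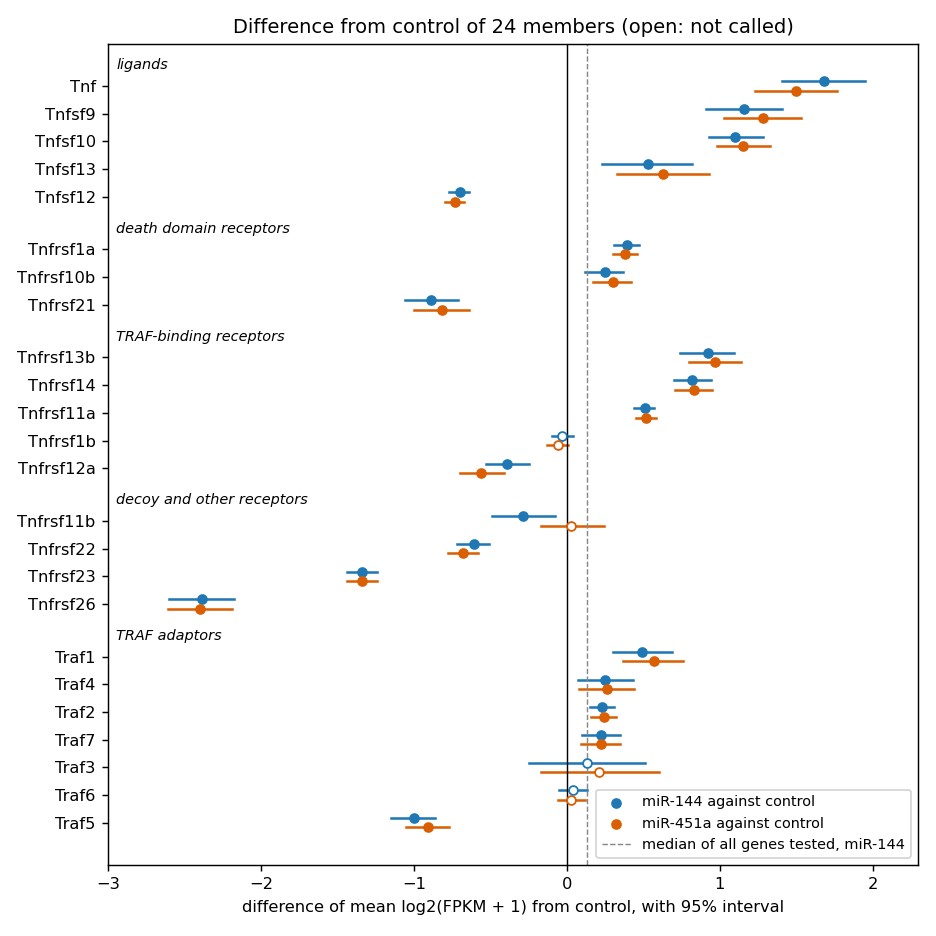
Difference of mean log2(FPKM + 1) from control for the 24 tested members, grouped by role, with 95% intervals. Filled points were called at an adjusted p under 0.05 and open points were not, and the dashed line is the median of all genes for miR-144 (0.13). The ligands lie to the right except Tnfsf12, and Tnfrsf22, Tnfrsf23 and Tnfrsf26 lie to the left in both groups.

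Among the ligands, Tnf, Tnfsf9, Tnfsf10 and Tnfsf13 rose and Tnfsf12 fell in both miRNA groups, which accounts for the 5 ligands that passed the filter, Tnfsf9 and Tnfsf10 of them only through their miRNA groups. Of all genes tested 47.1% and 48.1% were called higher and 20.1% and 20.3% lower. Tnf, the cytokine that names the family, was at 1.69, 1.76, 1.43, 1.09 and 2.15 FPKM in the control samples. It was at 7.5, 7.95, 6.13, 6.33 and 9.04 FPKM in miR-144 and at 6.91, 5.85, 5.09, 6.24 and 7.98 FPKM in miR-451a. Every miRNA sample was above every control sample. The difference was 1.68 ± 0.12 on the log2 scale (SE, adjusted p = 1.3e-08) in miR-144 and 1.5 ± 0.12 (adjusted p = 4.64e-08) in miR-451a, with mean FPKM 4.55 and 3.95 times that of control.

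Tnfsf10 encodes TRAIL, a ligand known for inducing death of tumor cells through death domain receptors. Its control samples were at 0.151, 0.247, 0.188, 0.170 and 0.183 FPKM, above the floor of 3 fragments (0.0386 FPKM) in each sample. It was at 1.63, 1.65, 1.44, 1.24 and 1.85 FPKM in miR-144 and at 1.84, 1.88, 1.41, 1.21 and 1.96 FPKM in miR-451a. The lowest miRNA sample, at 1.21 FPKM, was above the highest control sample, at 0.247. Mean FPKM was 8.32 times control in miR-144 and 8.84 times in miR-451a, and the log2 differences of 1.1 ± 0.08 (adjusted p = 1.41e-08) and 1.15 ± 0.08 (adjusted p = 8.14e-09) understate these ratios because of the added 1.

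Tnfsf9 encodes the ligand of 4-1BB, a costimulatory receptor of T cells. It was at 0.932, 0.739, 0.451, 0.606 and 0.758 FPKM in control, and at 3.33, 2.72, 1.85, 2.77 and 3.38 FPKM in miR-144. In miR-451a it was at 3.90, 2.81, 3.20, 2.56 and 3.20 FPKM. No sample overlapped, and the difference was 1.16 ± 0.12 (adjusted p = 4.49e-07) in miR-144 and 1.28 ± 0.12 (adjusted p = 1.33e-07) in miR-451a. Mean FPKM was 4.03 and 4.49 times that of control.

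Tnfsf14 encodes LIGHT, a ligand of HVEM, and lies 81.7 kb from Tnfsf9 on chromosome 17. Its mean over all samples was under 1 FPKM, so it was tested without the filter. The control samples were at 0.206, 0.303, 0.263, 0.225 and 0.317 FPKM, the miR-144 samples at 0.974, 1.43, 0.931, 0.924 and 1.11 and the miR-451a samples at 1.18, 1.41, 1.69, 1.54 and 1.45. Both miRNA groups lay above control in every sample. The difference was 0.71 ± 0.07 (adjusted p = 1.69e-06) in miR-144 and 0.96 ± 0.07 (adjusted p = 6.85e-08) in miR-451a. Mean FPKM was 0.263 in control, 1.07 in miR-144 and 1.45 in miR-451a.

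**Figure D3:**
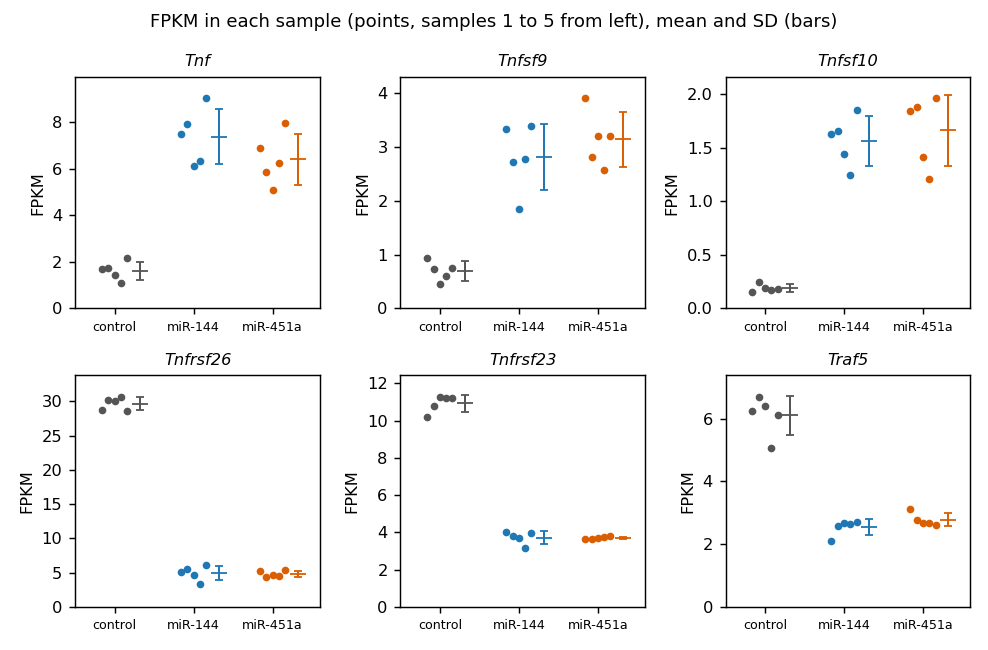
FPKM of Tnf, Tnfsf9, Tnfsf10, Tnfrsf26, Tnfrsf23 and Traf5 in each sample on linear axes from 0, with samples 1 to 5 of a group from left to right and the mean and SD beside them. The 5 control samples lie apart from all 10 miRNA samples in each panel, below them in the upper row and above them in the lower row.

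The order of samples within a group was alike by sample number for some of the rising members, in control too. Samples 3 and 4 had the 2 lowest levels of Tnf and of Traf1, and samples 2 and 5 the 2 highest, in control and in miR-144. In miR-451a samples 3 and 4 had the 2 lowest levels of Traf1 and of Tnfsf10, while the lowest of Tnf were samples 3 and 2. For Tnfsf10 the lowest were samples 3 and 4 in miR-144 and samples 1 and 4 in control. This was read from the values and was not tested, and what the shared numbers stand for is not stated in the labels.

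Tnfsf12 and Tnfsf13 moved in opposite directions. Tnfsf12 was at 61.3 to 68.2 FPKM in control, 39.2 to 40.7 in miR-144 and 38.2 to 40.5 in miR-451a, with no overlap. It fell by 0.70 ± 0.03 on the log2 scale (adjusted p = 2.15e-11) in miR-144 and by 0.73 ± 0.03 (adjusted p = 1.24e-11) in miR-451a. Tnfsf13, the ligand APRIL, was at 7.28, 5.25, 7.74, 5.93 and 6.20 FPKM in control, at 8.20, 12.3, 8.18, 10.3 and 10.1 in miR-144 and at 11.7, 12.9, 10.6, 7.24 and 10.8 in miR-451a. Sample 4 of miR-451a lay within the control range, while all miR-144 samples lay above it. The difference was 0.53 ± 0.14 (adjusted p = 0.00368) in miR-144 and 0.63 ± 0.14 (adjusted p = 0.000966) in miR-451a.

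These 2 genes are 465 bp apart on the minus strand of chromosome 11 and share a readthrough transcript, Tnfsfm13. In GENCODE M21, 49.0% of the 50-base stretches of the longest Tnfsf12 transcript and 51.9% of those of Tnfsf13 also occur in Tnfsfm13. How the quantification divided reads among the 3 genes is not stated, so the levels of Tnfsf12 and Tnfsf13 are uncertain.

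Of the 7 ligands under 1 FPKM, Tnfsf13b and Tnfsf8 were called higher in both groups in the fit without the filter, besides Tnfsf14. Tnfsf13b, the ligand BAFF, was at 0.123 to 0.205 FPKM in control, 0.298 to 0.540 in miR-144 and 0.318 to 0.594 in miR-451a, without overlap. Tnfsf8, the ligand of CD30, was at 0 to 0.0988 FPKM in control, 0.198 to 0.367 in miR-144 and 0.236 to 0.584 in miR-451a. The log2 differences were 0.33 ± 0.05 (adjusted p = 0.000171) and 0.36 ± 0.05 (adjusted p = 7.59e-05) for Tnfsf13b, and 0.31 ± 0.06 (adjusted p = 0.000738) and 0.36 ± 0.06 (adjusted p = 0.000171) for Tnfsf8. Mean FPKM went from 0.149 in control to 0.443 and 0.472 for Tnfsf13b, and from 0.0463 to 0.297 and 0.35 for Tnfsf8. Tnfsf15, the ligand TL1A, was called in miR-144 only, at 0.14 ± 0.05 (adjusted p = 0.0483), and that call was lost in 8 of the 15 fits with 1 sample left out. Tnfsf4 and Tnfsf11, which encode OX40L and RANKL, did not pass the floor of 3 fragments in any sample, and Tnfsf18 passed it in 4 samples.

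Of the 3 death domain receptors above 1 FPKM, Tnfrsf1a and Tnfrsf10b rose and Tnfrsf21 fell. Tnfrsf1a was at 46.6, 44.0, 44.7, 44.1 and 50 FPKM in control, at 58.7 to 61.5 in miR-144 and at 57.6 to 62.0 in miR-451a. All 10 miRNA samples were above all control samples, and the difference was 0.39 ± 0.04 (adjusted p = 1.66e-07) in miR-144 and 0.38 ± 0.04 (adjusted p = 2.13e-07) in miR-451a. Tnfrsf21, the receptor DR6, was at 9.64, 8.71, 11.0, 10.3 and 9.42 FPKM in control, at 4.27 to 5.71 in miR-144 and at 4.48 to 6.01 in miR-451a. It fell by 0.89 ± 0.08 (adjusted p = 1.95e-07) and by 0.82 ± 0.08 (adjusted p = 4.45e-07).

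Tnfrsf10b encodes the death receptor for TRAIL in the mouse. It was at 0.774 to 1.1 FPKM in control, 1.17 to 1.33 in miR-144 and 1.16 to 1.57 in miR-451a. The difference was 0.25 ± 0.06 (adjusted p = 0.0018) and 0.30 ± 0.06 (adjusted p = 0.000391), and with median centring it was 0.11 in miR-144 (adjusted p = 0.105), which is no longer a call. Under quantile normalization neither difference was a call, at 0.05 (adjusted p = 0.435) and 0.09 (adjusted p = 0.145). The fourth, Tnfrsf25, was listed at 0 in all control samples and passed the floor in 1 sample of the 15, although it was called in miR-451a at 0.06 (adjusted p = 0.0131).

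Tnfrsf13b, Tnfrsf14 and Tnfrsf11a rose among the receptors that bind TRAF proteins. Tnfrsf13b, the receptor TACI for BAFF and APRIL, was at 3.78, 4.01, 4.47, 4.18 and 4.50 FPKM in control. It was at 8.79, 8.26, 9.72, 10 and 7.33 FPKM in miR-144 and at 9.73, 8.28, 10.3, 9.67 and 7.99 in miR-451a. All miRNA samples were above control, with differences of 0.92 ± 0.08 (adjusted p = 9.03e-08) and 0.97 ± 0.08 (adjusted p = 4.46e-08).

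The B cell markers were measured beside it, because TACI and BCMA are also known from B lineage cells. The summed level of the 6 B cell markers was 0.471 to 0.614 FPKM in control, 1.55 to 1.96 in miR-144 and 1.69 to 2.33 in miR-451a. Cd79b, the only 1 of the 6 that reached 1 FPKM, was at 0.0878 to 0.328, 1 to 1.39 and 1.15 to 1.62 FPKM, and Ebf1 at 0.219 to 0.377, 0.421 to 0.651 and 0.452 to 0.667. The defining genes Ms4a1 and Pax5 did not pass 0.0218 FPKM in any sample. The part of these cells in the level of Tnfrsf13b was not tested.

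Tnfrsf14 was at 15.5, 15, 16.9, 14.6 and 16.3 FPKM in control, at 24.9 to 31.2 in miR-144 and at 26.7 to 30.1 in miR-451a. It rose by 0.82 ± 0.06 (adjusted p = 5.6e-09) and by 0.83 ± 0.06 (adjusted p = 4.65e-09), so receptor and ligand of the HVEM and LIGHT pair were both higher. Tnfrsf11a, the receptor RANK of osteoclast precursors and macrophages, was at 9.01, 9.08, 8.85, 8.70 and 8.52 FPKM in control, at 12.6 to 13.4 in miR-144 and at 12.4 to 13.6 in miR-451a. It rose by 0.51 ± 0.03 (adjusted p = 9.4e-10) and by 0.52 ± 0.03 (adjusted p = 7.49e-10), while its ligand RANKL stayed under the floor.

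Tnfrsf12a, the receptor Fn14 for TWEAK, fell together with its ligand. It was at 6.27, 7.76, 6.19, 5.52 and 6.68 FPKM in control, 4.37 to 5.17 in miR-144 and 3.75 to 4.43 in miR-451a, without overlap. It fell by 0.39 ± 0.07 (adjusted p = 9.99e-05) in miR-144 and by 0.56 ± 0.07 (adjusted p = 2.7e-06) in miR-451a. Tnfrsf1b was not called, with 140.0 to 151 FPKM in control, 139 to 148 in miR-144 and 131 to 145 in miR-451a. Its log2 differences were -0.03, with a 95% interval from -0.10 to 0.04, and -0.06, with an interval from -0.13 to 0.01. With the median shift of all genes removed by centring they were -0.17 (adjusted p = 0.000582) and -0.20 (adjusted p = 9.36e-05), and under quantile normalization they were above 0, so no direction is given for this gene.

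The other 7 receptors of this class were under 1 FPKM. Tnfrsf17, the receptor BCMA, was at 0 to 0.156 FPKM in control, 0.312 to 0.599 in miR-144 and 1.02, 1.25, 0.982, 0.473 and 0.218 in miR-451a. It was called higher in both groups, at 0.42 ± 0.14 (adjusted p = 0.0298) and 0.70 ± 0.14 (adjusted p = 0.000899), while only 11 of its 15 values lay above the floor of 3 fragments of their own sample. The call in miR-144 was lost in 6 of the 15 fits with 1 sample left out, where the adjusted p was 0.0506 to 0.0733. It was also lost with the replicate block (adjusted p = 0.0599), median centring (adjusted p = 0.0692) and quantile normalization (adjusted p = 0.0517). Tnfrsf4, Tnfrsf8, Tnfrsf9 and Tnfrsf18, the receptors OX40, CD30, 4-1BB and GITR, were not called in either comparison, at 0 to 1.04 FPKM over all samples. Tnfrsf19 was called in miR-451a only, at 0.05 with means of 0.0488 against 0.0101 FPKM, where it passed the floor in 6 of 15 samples, and Tnfrsf13c did not pass the floor in any sample.

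Tnfrsf22, Tnfrsf23 and Tnfrsf26 fell together. These receptors are encoded in tandem on the minus strand of chromosome 7, at chr7:143607659-143685872 in GENCODE M21, a stretch of 78214 bp. Tnfrsf22 and Tnfrsf23 are known as decoy receptors that bind TRAIL without a death domain.

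Tnfrsf26 was at 28.8, 30.2, 30.1, 30.7 and 28.6 FPKM in control. It was at 5.03, 5.53, 4.60, 3.38 and 6.05 FPKM in miR-144 and at 5.26, 4.42, 4.62, 4.50 and 5.41 in miR-451a. The highest miRNA sample had 6.05 FPKM and the lowest control sample 28.6. It fell by 2.39 ± 0.10 on the log2 scale (adjusted p = 1.29e-11) in miR-144 and by 2.40 ± 0.10 (adjusted p = 1.19e-11) in miR-451a. On log2(FPKM + 1) this was the largest difference among the members in both comparisons, but not by the ratio of mean FPKM. That ratio to control was 0.166 and 0.163 for Tnfrsf26, and 8.32 and 8.84 for Tnfsf10.

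Tnfrsf23 was at 10.2, 10.8, 11.3, 11.2 and 11.2 FPKM in control, at 4.04, 3.78, 3.69, 3.15 and 3.96 in miR-144 and at 3.66, 3.67, 3.70, 3.73 and 3.80 in miR-451a. The miR-451a samples lay within 3.66 to 3.80 FPKM, far below control. It fell by 1.34 ± 0.05 in each comparison (adjusted p = 2.06e-12 and 1.88e-12). Tnfrsf22 was at 3.21 to 3.84 FPKM in control, 1.90 to 2.01 in miR-144 and 1.65 to 2.03 in miR-451a, and fell by 0.61 ± 0.05 (adjusted p = 1.9e-08) and by 0.68 ± 0.05 (adjusted p = 5.17e-09).

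Part of the sequence of this pair is shared, since 27.7% of the 50-base stretches of Tnfrsf22 also occur in other genes, mainly Tnfrsf23, and 21.8% of those of Tnfrsf23 occur in Tnfrsf22. No 50-base stretch of Tnfrsf26 occurs in another gene. The gene E230032D23Rik on the opposite strand overlaps all 3 receptors, and whether the counting used strand is not stated, so its reads and theirs cannot be told apart where they overlap. It fell as well, from 4.08 FPKM in control to 0.712 in miR-144 and 0.567 in miR-451a.

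The neighbourhood was examined after the values of the receptors had been seen. Within 200000 bp of the 3 receptors, 8 other genes had a mean of at least 1 FPKM, of which 6 were called lower in miR-144, 7 lower in miR-451a and 0 higher in either. These counts include E230032D23Rik, and without it they were 5 and 6 of 7. Dhcr7, an enzyme of cholesterol synthesis, was at 29.9 FPKM in control, 5.70 in miR-144 and 5.32 in miR-451a, and it fell by 2.20 and fell by 2.29 (adjusted p = 1.94e-14 and 1.31e-14). Mrgpre fell by 1.30 and by 1.46, Nadsyn1 by 0.79 and by 0.76, Cdkn1c by 0.71 and by 0.89, and Cars by 0.67 and by 0.74. Nap1l4 was not called, at 18.2, 19.5 and 18.5 FPKM. Of all genes tested, 20.1% and 20.3% were called lower, as given above.

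**Figure D4:**
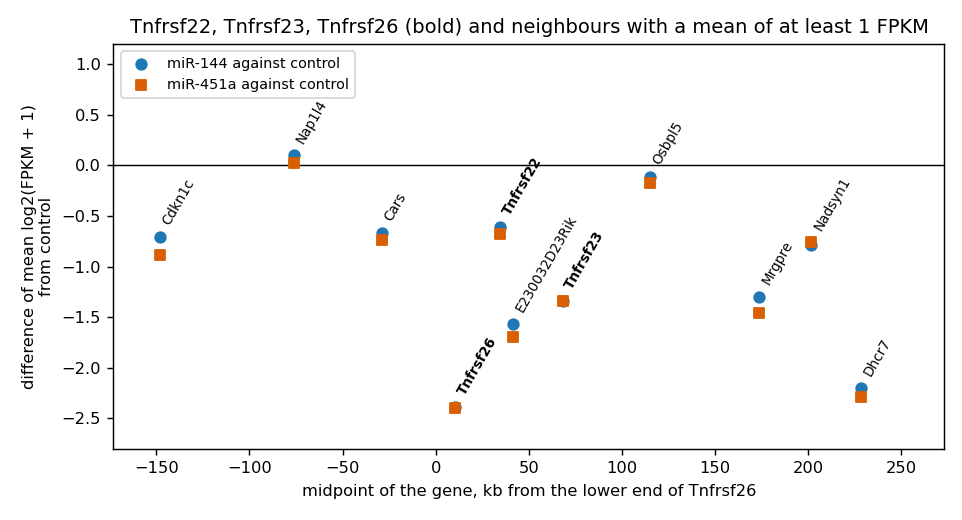
Difference of mean log2(FPKM + 1) from control against the distance of each gene's midpoint from the lower end of Tnfrsf26, for the 3 tandem receptors (bold) and the 8 neighbours with a mean of at least 1 FPKM. Tnfrsf26 and Dhcr7 lie lowest, below -2 in both groups, and Nap1l4 lies at 0.10 and 0.02.

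Tnfrsf11b encodes osteoprotegerin, a secreted decoy for RANKL and TRAIL. It was at 2.34, 2.36, 1.94, 1.71 and 1.66 FPKM in control, at 1.61, 1.81, 1.29, 1.55 and 1.07 in miR-144 and at 2.49, 1.98, 2.05, 2.16 and 1.67 in miR-451a. The miR-144 samples overlapped with control, and the fall by 0.29 ± 0.10 was called there (adjusted p = 0.0156). In miR-451a the difference was 0.03 ± 0.10, with a 95% interval from -0.17 to 0.24. The miR-451a and miR-144 groups differed by 0.32 ± 0.10 (unadjusted p = 0.00457), and this was not called (adjusted p = 0.827), so the 2 groups are not shown to differ for this gene.

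All 7 TRAF adaptors were above 1 FPKM, and 4 rose, 1 fell and 2 were not called in each comparison, where 47.1% and 48.1% of all genes were called higher and 20.1% and 20.3% lower. With median centring 2 were higher and 1 lower in miR-144, and 2 higher and 2 lower in miR-451a, against 30.8% and 31.3% of all genes higher and 30.7% and 31.8% lower. Traf1, an NF-kappaB-induced adaptor of TNFR2, was at 1.17, 1.2, 1.02, 1.08 and 1.26 FPKM in control, at 2.02, 2.46, 1.61, 1.68 and 2.43 in miR-144 and at 2.33, 2.44, 2.01, 1.69 and 2.49 in miR-451a. The groups did not overlap with control, and the difference was 0.49 ± 0.09 (adjusted p = 0.000189) and 0.57 ± 0.09 (adjusted p = 4.79e-05).

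Traf2, Traf4 and Traf7 also rose. Traf2, the adaptor that brings cIAP ubiquitin ligases to the receptors, was at 4.13 to 4.88 FPKM in control, 5.08 to 5.47 in miR-144 and 5.10 to 5.47 in miR-451a, with differences of 0.23 ± 0.04 and 0.24 ± 0.04 (adjusted p = 7.08e-05 and 4.31e-05). Traf4 was at 1.05 to 1.32, 1.21 to 2.12 and 1.36 to 2 FPKM, with differences of 0.25 ± 0.08 and 0.26 ± 0.08 (adjusted p = 0.0169 and 0.013). Traf7 was at 9.23 to 10.3, 10.5 to 12.8 and 10.7 to 12.6 FPKM, with differences of 0.22 ± 0.06 in each (adjusted p = 0.00385 and 0.00392). After median centring Traf4 and Traf7 were no longer called in either comparison, at 0.08 to 0.12 on the log2 scale, while Traf2 remained called.

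Traf5 fell in both comparisons. It was at 6.26, 6.71, 6.40, 5.06 and 6.11 FPKM in control, at 2.09, 2.59, 2.66, 2.65 and 2.70 in miR-144 and at 3.13, 2.77, 2.67, 2.69 and 2.62 in miR-451a. The lowest control sample, 5.06 FPKM, was above the highest miRNA sample, 3.13. The fall was by 1 ± 0.07 (adjusted p = 3.37e-09) in miR-144 and by 0.91 ± 0.07 (adjusted p = 1.03e-08) in miR-451a.

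Traf6, the adaptor of Toll-like receptors, RANK and CD40, was at 5.89 to 6.53 FPKM in control, 5.98 to 6.55 in miR-144 and 5.83 to 6.75 in miR-451a and was not called. The 95% interval of its difference was -0.05 to 0.13 in miR-144 and -0.06 to 0.12 in miR-451a. With median centring and with quantile normalization it was called lower in miR-451a, at -0.11 in each (adjusted p = 0.0273 and 0.0292), so no direction is given for it. Traf3, an inhibitor of the noncanonical NF-kappaB pathway, was not called either, and its standard error of 0.18 in both comparisons was the largest among the adaptors. It was at 2.14, 2.56, 2.34, 3.63 and 2.53 FPKM in control, at 2.65, 4.65, 2.71, 2.59 and 2.52 in miR-144 and at 2.22, 2.75, 4.68, 4.51 and 2.40 in miR-451a. Sample 4 of control, sample 2 of miR-144 and samples 3 and 4 of miR-451a stood above the rest of their group. The 95% interval of the difference was correspondingly wide, from -0.25 to 0.51 in miR-144 and from -0.17 to 0.60 in miR-451a.

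**Figure D5:**
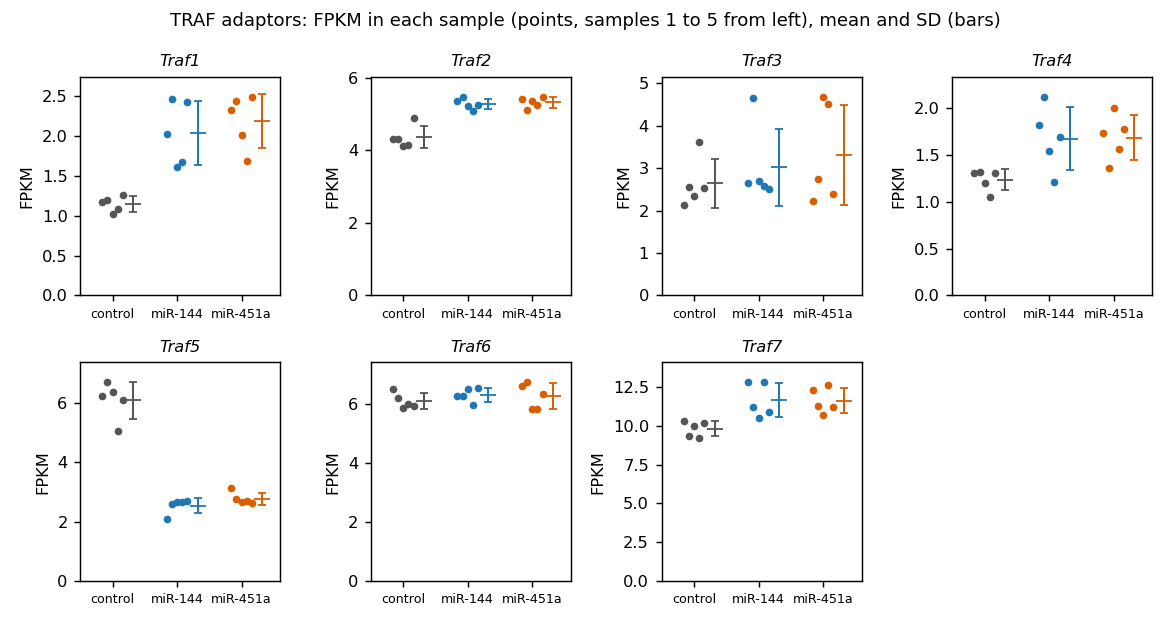
FPKM of the 7 TRAF adaptors in each sample on linear axes from 0, with samples 1 to 5 of a group from left to right and the mean and SD beside them. Traf1 lies higher and Traf5 lower in both miRNA groups without overlap, and Traf3 shows 1 or 2 high samples in each group.

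The miR-451a and miR-144 groups were compared with each other directly, which does not involve the control samples. Of the 24 tested members 0 were called by limma, and 0% of all 11419 genes were called. At an unadjusted p under 0.05 there were 2 members, Tnfrsf11b (above) and Tnfrsf12a, lower by 0.17 in miR-451a (95% interval -0.31 to -0.02), and 596 of all genes. Without the filter 0 of 39 members were called, against 0% of 29540 genes, and 6 had an unadjusted p under 0.05, as did 1459 of all genes. One of these was Tnfsf14, higher by 0.24 in miR-451a (unadjusted p = 0.0044, adjusted p = 0.797). The 95% interval of this difference was -0.45 to 0.09 for Tnf and -0.21 to 0.21 for Tnfrsf26.

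Ligands and their receptors in the same bulk RNA can be set side by side, which does not show that the same cells expressed both. For TRAIL, mean FPKM of the ligand went from 0.188 in control to 1.56 and 1.66, that of the death receptor Tnfrsf10b from 0.9 to 1.25 and 1.33, and that of the decoy Tnfrsf23 from 11.0 to 3.73 and 3.71. The decoy Tnfrsf22 went from 3.52 to 1.95 and 1.82 FPKM, and Tnfrsf11b from 2 to 1.46 and 2.07. For TNF, the ligand went from 1.62 to 7.39 and 6.41 FPKM, while TNFR1 went from 45.9 to 60.4 and 60 and TNFR2 from 146 to 143 and 140.0. For TWEAK both partners were lower in the miRNA groups. The receptor of 4-1BB ligand, Tnfrsf9, was at 0 to 0.189 FPKM in all samples, and the receptor of OX40L, Tnfrsf4, at 0.187 to 0.723.

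The other genes of the pathway were taken from lists of 61 genes, of which 50 had a mean of at least 1 FPKM. In miR-144, 32 were called higher and 6 lower, and in miR-451a 33 higher and 5 lower, with a median difference of 0.29 and 0.30 on the log2 scale. Of all genes tested 47.1% and 48.1% were called higher and 20.1% and 20.3% lower, with medians of 0.13 and 0.14. With median centring 24 of the 50 were higher in each comparison and 10 and 11 lower, beside 30.8% and 31.3% of all genes higher and 30.7% and 31.8% lower. Among the 29 signaling genes, which include the kinases, caspases, ubiquitin ligases and NF-kappaB subunits, 21 were higher and 1 lower in each comparison. With median centring 14 were higher and 4 lower in miR-144, and 14 higher and 6 lower in miR-451a, with the shares of all genes just given.

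By the mean of both log2 differences, the largest rises of the signaling genes were Map3k5, Map3k14 and Tab2. Map3k5, the JNK-activating kinase ASK1, was at 1.30 FPKM in control and 6.82 and 7.07 in the miRNA groups, a rise by 1.77 ± 0.04 and 1.81 ± 0.04 (adjusted p = 4.24e-14 and 3.04e-14). Map3k14, the kinase NIK that TRAF3 holds in check, rose by 1.12 ± 0.05 and 1.2 ± 0.05, and Tab2, a partner of the kinase TAK1, by 0.79 ± 0.11 and 0.57 ± 0.11. Relb rose by 0.54 ± 0.08 and 0.57 ± 0.08, as much as Tab2 in miR-451a. The only fall was Ripk3, a kinase of necroptosis, from 9.48 FPKM to 5.18 and 5.41 (adjusted p = 3.54e-09 and 8.15e-09).

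Of the 17 modulators tested, 9 were higher and 4 lower in each comparison, beside 47.1% and 48.1% of all genes higher and 20.1% and 20.3% lower. With median centring 9 were higher and 5 lower in miR-144, and 9 higher and 4 lower in miR-451a, beside 30.8% and 31.3% of all genes higher and 30.7% and 31.8% lower. Timp3, an inhibitor of the TNF-releasing protease, rose by 1.26 ± 0.11 and 1.35 ± 0.11, and the inhibitors of NF-kappaB Nfkbie and Nfkbia rose by 1.15 ± 0.08 and 1.16 ± 0.08 and by 1.09 ± 0.06 and 1.11 ± 0.06. Nfkbia was at 22.1 FPKM in control and 48.1 and 48.8 in the miRNA groups. The largest falls among the called modulators were Rhbdf2, a cofactor of the same protease, by 0.84 ± 0.05 and by 0.87 ± 0.05, then Spata2 by 0.30 and by 0.29 and Zfp36, which destabilizes Tnf mRNA, by 0.20 and by 0.15, and Nfkbib fell by 0.20 and by 0.12. Rhbdf1, in the same list as Rhbdf2, went the other way and rose by 0.58 ± 0.07 and by 0.7 ± 0.07 (adjusted p = 5.87e-06 and 6.68e-07). Tnfaip3, which encodes the ubiquitin-editing inhibitor A20, was not called, at -0.33 (adjusted p = 0.0651) and -0.14, but with centring it was called lower in miR-144 (-0.47, adjusted p = 0.0154). The protease itself, Adam17, was not called, at 41.3 FPKM in control and 44.4 and 42.6 in the miRNA groups.

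Of the 14 family genes with other symbols, 12 could be tested without the filter. There 4 were called higher in miR-144 and 5 in miR-451a, with 0 lower, against 23.1% and 24.5% of all genes higher and 9.65% and 9.69% lower. Of the 14, 4 had a mean of at least 1 FPKM. Relt rose by 0.41 ± 0.09 and 0.46 ± 0.09 and Ltbr, the lymphotoxin beta receptor, by 0.12 ± 0.04 and 0.22 ± 0.04. With median centring Ltbr was not called, at -0.02 (adjusted p = 0.693) and 0.07 (adjusted p = 0.0862). Cd40 was called higher in miR-451a (0.16, adjusted p = 0.0412), a call that was lost without the filter (adjusted p = 0.0858) and with centring (0.02, adjusted p = 0.835). Fas was called lower in miR-144 (-0.16, adjusted p = 0.0359) but not without the filter (adjusted p = 0.0703), and with centring it was called lower in both groups, at -0.29 and -0.25 (adjusted p = 0.00121 and 0.00326). Neither gene was called between the 2 miRNA groups.

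Markers of other cells moved with the groups as well. The summed level of the 3 monocyte markers was 2.38 to 3.74 FPKM in control, 6.96 to 12 in miR-144 and 6.56 to 11.0 in miR-451a, and that of the 8 T cell markers 1.33 to 1.70, 5.69 to 9.08 and 5.44 to 9.62, mostly Cd4. That of the 6 neutrophil markers, of which only Csf3r reached 1 FPKM, was 65.0 to 79.2 in control, 46.3 to 52.2 in miR-144 and 44.1 to 53.2 in miR-451a. The 4 fibroblast markers summed to 97.2 to 121 FPKM in control, 131 to 190 in miR-144 and 166 to 210 in miR-451a. Of these 3 reached 1 FPKM, and Lrat was listed at 0 in all samples. The 4 Kupffer cell markers summed to 3.3 to 3.75 FPKM in control, 17.0 to 49.9 in miR-144 and 15.7 to 47.0 in miR-451a. Of these only Cd5l reached 1 FPKM, and Clec4f was listed at 0 in all samples. The 4 endothelial markers summed to 3.58 to 4.1 FPKM in control, 4.51 to 4.96 in miR-144 and 4.55 to 5.8 in miR-451a, and the 6 dendritic cell markers to 0.3 to 0.42, 0.667 to 0.83 and 0.548 to 0.851. The sum of the 4 eosinophil or mast cell markers was 2.18 to 2.87, 0.616 to 2.13 and 0.961 to 1.6 FPKM, in which Siglecf was lower in the miRNA groups, at 1.94 to 2.56, 0.159 to 0.493 and 0.242 to 0.504, Mcpt8 was at 0.108 to 0.397, 0.264 to 1.36 and 0.536 to 1.02, Cpa3 overlapped and Prg2 was listed at 0. The sum of the 5 NK cell markers was 0.192 to 0.416, 0.0887 to 0.168 and 0.0323 to 0.137 FPKM, nearly all of it Klrb1c, with Gzma and Ncr1 listed at 0 in all samples and Nkg7 and Prf1 at 0 in control and at most 0.0488 FPKM elsewhere. The 6 hepatocyte markers overlapped, at 0.136 to 0.253, 0.0753 to 0.232 and 0.0995 to 0.226. The 10 macrophage markers summed to 10200 to 11200 FPKM in control, 18300 to 20000 in miR-144 and 18100 to 19200 in miR-451a. Among them Adgre1 was at 131 to 141 FPKM in control, 334 to 394 in miR-144 and 336 to 380 in miR-451a, while Cd68 was lower in the miRNA groups, at 1380 to 1500, 882 to 943 and 835 to 976, and Itgam overlapped between all groups. Their part in the differences of Tnf, Tnfsf10 and the other members was not tested.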

How the data were processed

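RNA-seq of TAMs gave FPKM values per gene for 15 samples in 3 groups of 5, taken from the sample labels. The submitters' processing notes name FastQC 0.11.2, STAR and StringTie, and the genome build and annotation are not given in the sources used here. The authors deposited FPKM, already divided by transcript length and mapped fragments. Counts were not recovered because 41.5% to 55.5% of low values lay on whole fragments (within 0.05).

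All 39 members matched GENCODE M21, as did 99.67% of all identifiers, and its coordinates may differ from those of the unnamed build behind the table. limma 3.58.1 in R 4.3.3 was run with a mean-variance trend on log2(FPKM + 1), over 11419 genes averaging 1 FPKM or more and, for the low members, over 29540 genes above 0 in any sample. Adjustment followed Benjamini and Hochberg. The fit was tested on simulated data. The floor was 3 fragments and covers counting error only. Depth, sequences and figures used Python 3.11.15, pandas 2.3.3 and matplotlib 3.10.9.

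Members and lists were chosen with earlier results of these data known. All members may be named, those with a group mean of at least 1 FPKM with their values, and of the pathway lists the 3 largest called rises and 3 largest called falls. Any other gene was named after its values were seen. The values of 1 marker gene are not reported here, while the sum of its list includes it.

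Each result was recomputed with another pseudocount (0.1), other filters (none, or 5 FPKM), other scalings (TPM, quantiles, centring on the median), the replicate number as a block, no trend, 2 groups only, a minimum log2 difference of 1, and 1 sample left out at a time.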

Additional observations from a re-analysis of the deposited data

Results flagged for a closer look

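In each group of 5, the gap of the highest or lowest sample to its neighbour was compared with the range of the group. Of 75 groups (25 members, 3 groups) 5 had a sample set apart, and chance alone sets apart about 1 group in 20. Traf3 was set apart in control, with sample 4 at 3.63 FPKM against 2.14 to 2.56 in the others, and in miR-144, with sample 2 at 4.65 against 2.52 to 2.71. Traf5 in miR-144 had sample 1 at 2.09 FPKM against 2.59 to 2.70. Traf2 in control had sample 5 at 4.88 FPKM against 4.13 to 4.32. Tnfrsf1b in miR-451a had sample 4 at 131 FPKM against 141 to 145. Without 1 of the samples in turn, the difference from control of Traf3 was 0 to 0.22 in miR-144 and 0.10 to 0.31 in miR-451a, and Traf3 was not called in any of these fits. Traf2 and Traf5 were called in all of them.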

How the results depend on the processing

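The calls of the 24 members held with each sample left out in turn, with 21 called in miR-144 and 20 in miR-451a in every fit, and 0 between the miRNA groups. Without the filter the range over these fits was 22 to 26 and 25 to 27, and 0 between the miRNA groups. For the other pathway genes it was 37 to 40 and 34 to 38, and for the median difference of members 0.21 to 0.25, 0.22 to 0.25 and 0 to 0.03. Among members under 1 FPKM the calls lost were Tnfrsf17 in miR-144 (without control 2, 3 or 4 or miR-144 2, 4 or 5) and Tnfsf15 in miR-144 (without control 1, 2, 3 or 5, miR-144 1, 3 or 5 or miR-451a 2). In the fits without the filter Traf4 also lost its call in 8 of 15 fits in miR-144 and 5 in miR-451a, and Tnfrsf11b in 5 in miR-144, while Tnfsf11 and Tnfsf18 were called in miR-451a in 2 each.

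A minimum mean of 5 FPKM left 12 of 14 members called in each comparison with control. A minimum log2 difference of 1 left 6 of 24 in miR-144 and 5 in miR-451a, the same counts of 39 without the filter, and 5 of 50 other pathway genes in each. The median difference of members in miR-144 and miR-451a was 0.13 and 0.07 without the filter, 0.13 and 0.13 at 5 FPKM, 0.09 and 0.09 with median centring, 0.08 and 0.09 with quantile normalization and 0.32 and 0.34 as TPM. Quantile normalization turned Tnfrsf1b to 0.12 and 0.09, and Traf6 in miR-451a to -0.11, as did median centring (-0.11), each a call. Median centring turned Tnfrsf25 to -0.12 and -0.08 and Tnfrsf19 to -0.11 and -0.09, which are near 0 FPKM and so take the shift itself. Calls of Tnfrsf10b, Traf4 and Traf7 were lost under these scalings (Tnfrsf10b in miR-451a under quantile normalization only). In miR-144 Tnfrsf17, at 0.42, lost its call with centring (0.28, adjusted p = 0.0692) and quantiles (0.37, adjusted p = 0.0517), and Tnfsf15, at 0.14, with centring (0.01, adjusted p = 0.921), quantiles (0.06, adjusted p = 0.423) and a pseudocount of 0.1 (0.44, adjusted p = 0.0696).

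Samples of a group share numbers 1 to 5 with the other groups. The correlation of same-numbered deviations was -0.127 to 0.108, 0.0658 to 0.264 and -0.15 to 0.241 over the 3 pairs of groups, with 1, 3 and 4 of 5 above 0.1. In addition, 3 of 15 samples correlated best with their own number in both other groups. These values do not settle whether the numbers pair the samples. The main fit used no pairing, and a fit with the number as a block is given beside it. With the replicate block 7711 and 7859 of all genes were called against 7668 and 7804, and Tnfrsf17 (0.42, adjusted p = 0.0599) and Tnfsf15 (0.14, adjusted p = 0.0655) in miR-144 lost their call. Depth limits the low members, of which Tnfrsf13c, Tnfsf11 and Tnfsf4 were under the floor of 3 fragments in all samples.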
